A study of Rattus norvegicus with 23 samples.

Results

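The comparison described here is the interaction of strain and uninephrectomy, that is, the change of kidney gene expression after surgical removal of the right kidney in SBH/y rats minus the same change in SBN/y rats. It drew on all 23 arrays of the series, 1 array per kidney sample, and on 31042 of the 31099 probe sets of the Affymetrix array, the 57 control probe sets being left out. The 4 groups were SBN/y rats with 2 kidneys after a sham operation (5 samples), SBN/y rats with 1 kidney after uninephrectomy (6 samples), SBH/y rats with 2 kidneys after a sham operation (6 samples) and SBH/y rats with 1 kidney (6 samples). All rats were male, received ordinary chow, and were killed at 4 months of age, 3 months after the operation. No other treatment is given in the labels, which do not state that each sample came from a separate rat. A positive interaction means that the level moved further up, or less far down, in SBH/y than in SBN/y after uninephrectomy.

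SBN/y and SBH/y are the inbred Sabra lines that resist or develop hypertension under salt loading, and proteinuria is the theme that the series' title gives. After the loss of a kidney, the remaining kidney enlarges and each of its nephrons filters more, which raises the protein and solute load on the tubule. Injured tubule cells are known to make surface and secreted proteins such as Havcr1 (kidney injury molecule), osteopontin and clusterin, macrophages and lymphocytes gather between the tubules, and matrix is laid down there, while the transport and metabolic enzymes of healthy tubules decline. The comparison asks in which of these genes the strains responded differently to the same operation.

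Levels are given as the deposited log2 values, so that a difference of 1 is a 2-fold difference, and a ± value is the standard error from the fit. The defining kidney genes were high on every array, with uromodulin (Umod) between 12.32 and 12.58 and the proximal tubule phosphate transporter Slc34a1 between 12.09 and 12.37. Array medians lay between 4.65 and 4.69. The 3′ minus 5′ signal of the GAPDH control probe sets, a measure of RNA integrity, had group means of 0.35 (SBN/y with 2 kidneys), 0.45 (SBN/y with 1), 0.46 (SBH/y with 2) and 0.53 (SBH/y with 1), and its own interaction was -0.03. Its part in the results was not tested beyond a fit that held it as a covariate, in which all 61 genes named below kept their calls. The 4 probe sets of Xist, which males do not express, read 2.14 to 3.13. A group mean in that range was taken as not distinguishable from background, and the size of a difference that involves it as not measured.

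The response to uninephrectomy differed between the strains at 79 probe sets, 0.254% of those tested (limma, Benjamini-Hochberg adjusted p below 0.05). It was more positive in SBH/y at 65 (0.209%) and more negative at 14 (0.0451%). The median interaction was 0.78 among the 65 and -0.68 among the 14, against -0.0039 over all probe sets, and 14 and 3 of them exceeded a 2-fold difference. At an unadjusted p below 0.05, 2503 probe sets differed, 1422 positive and 1081 negative. The 79 carried 61 different genes with an unambiguous symbol, 49 positive and 12 negative. A pair of probe sets carried several symbols and 15 none.

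The SBH/y response was the larger part of the difference at most of these probe sets. Among the 65 positive probe sets, the median response was 0.74 in SBH/y and 0.04 in SBN/y. Among the 14 negative ones, it was -0.51 in SBH/y and 0.17 in SBN/y. In 76 of the 79 the larger response in size was that of SBH/y, the exceptions being 1375823_at, 1381628_at and 1383210_at. The response itself was called in SBH/y alone at 75 of the 79, in both strains and the same way at 1 (Havcr1), in SBN/y alone at 1 (the unnamed 1375823_at) and in neither at 2, the interaction being the test of the difference in each case. These calls and the ± values rest on a variance per probe set that all 4 groups shared. At the 65 positive probe sets the spread within SBH/y with 1 kidney was wider (median SD 0.239, against 0.117 to 0.134 in the others). That spread also entered the SBN/y standard errors, so a response not called in SBN/y is not shown to be absent. For comparison, uninephrectomy changed 1563 probe sets in SBH/y (5.04%) and 52 in SBN/y (0.168%). The count of 52 ran from 24 to 78 when 1 array was left out. In SBN/y, 39 of the 65 positive probe sets had a response of the same sign as in SBH/y, and 12 of the 14 negative ones had the opposite sign. The SBN/y response was called at 1 of those 14. The probe sets were chosen by the difference between these responses, so the counts of signs and of the larger response are descriptions. Their shares over all probe sets were not determined.

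**Figure D1:**
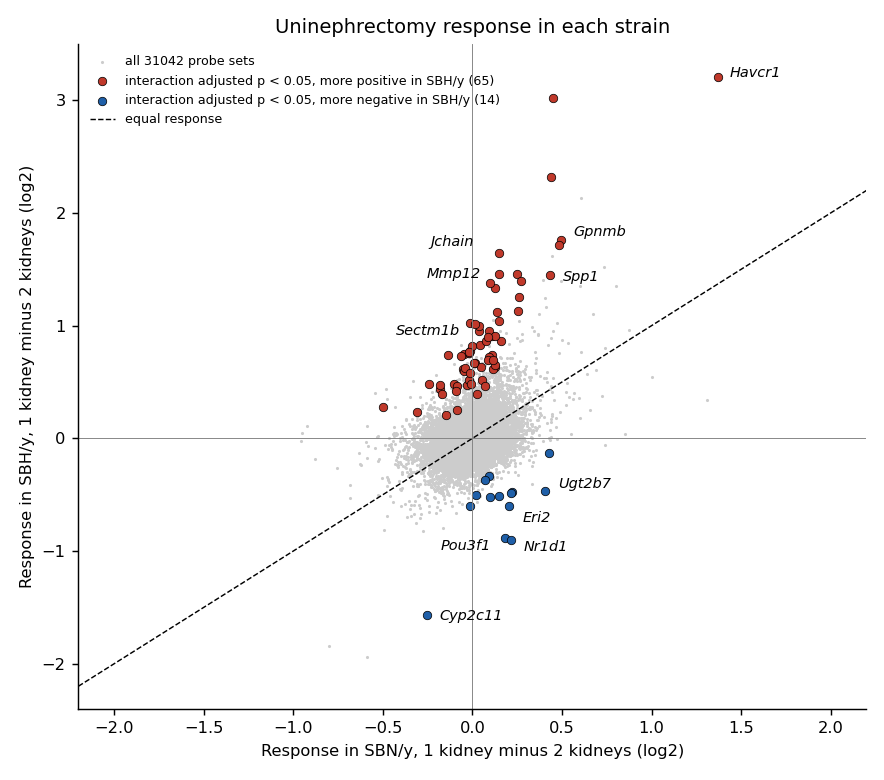
Each point is a probe set, placed by its uninephrectomy response (1 kidney minus 2 kidneys, log2) in SBN/y on the horizontal axis and in SBH/y on the vertical axis, with all 31042 probe sets in grey, the 65 more positive in SBH/y in red and the 14 more negative in blue. The red points rise steeply near a horizontal value of 0, Havcr1 stands far from 0 on both axes, and the dashed line marks an equal response in both strains.

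Genes of tubular injury had the most calls among 29 gene lists. The lists were written with earlier results of these data known, so that their counts are descriptions and not independent support. Of 20 measured genes of a tubular injury list, 10 had a called positive interaction and 0 a negative one, with a median of 0.48, against 58 of 14217 genes called (0.408%, 47 of them positive, 0.331%, and 11 negative, 0.0774%) and a median of 0.0047 over all genes. The called members were Havcr1, Spp1, Clu, Tnfrsf12a, Cd44, Timp1, Vim, Krt8, Anxa2 and S100a11, and 15 of the 20 rose in SBH/y (4.76% of all genes did) and 2 in SBN/y (0.155%). Havcr1, the surface receptor that marks injured proximal tubule cells, read 3.73, 3.80, 3.85, 3.93 and 3.97 in SBN/y with 2 kidneys and 4.19 to 5.92 (median 5.29) in SBN/y with 1. The SBH/y samples read 3.93 to 4.72 (median 4.09) with 2 kidneys and 6.96 to 8.53 (median 7.09) with 1. The groups with 1 kidney did not overlap each other, nor did either overlap the group with 2 kidneys of its strain. Havcr1 thus rose by 1.37 ± 0.25 in SBN/y (adjusted p = 0.0144, limma) and by 3.20 ± 0.24 in SBH/y, and the responses differed by 1.83 ± 0.34 (adjusted p = 0.0110, limma), a 3.55-fold difference between the fold changes.

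Spp1, which encodes the secreted phosphoprotein osteopontin, read 9.94, 10.01, 10.06, 10.10 and 10.16 in SBN/y with 2 kidneys and 10.28 to 10.75 (median 10.47) in SBN/y with 1. The values in SBH/y were 10.42 to 10.66 (median 10.55) with 2 kidneys and 11.74 to 12.54 (median 11.90) with 1. Every SBH/y sample with 1 kidney lay above all other samples, and SBN/y with 1 kidney covered the range of SBH/y with 2. The interaction was 1.01 ± 0.14 (adjusted p = 0.000762, limma). The SBN/y response of Spp1, 0.43 ± 0.10, did not pass on its own (adjusted p = 0.0924, limma), although the SBN/y groups did not overlap.

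Tnfrsf12a, the receptor for the cytokine TWEAK, read 5.33, 5.42, 5.45, 5.55 and 5.65 in SBN/y with 2 kidneys, and 5.51 to 5.98 (median 5.77) with 1. In SBH/y it read 4.93 to 5.66 (median 5.52) with 2 kidneys and 6.36 to 7.20 (median 6.85) with 1. SBH/y with 1 kidney lay above all other samples, which overlapped. The strain difference was -0.04 ± 0.12 with 2 kidneys (adjusted p = 0.919, limma) and 1.08 ± 0.12 with 1, an interaction of 1.12 ± 0.17 (adjusted p = 0.00110, limma). Clu, the secreted chaperone clusterin, had group means of 8.47 and 8.73 in SBN/y and 8.49 and 9.75 in SBH/y and an interaction of 0.99 ± 0.17. Cd44, the hyaluronan receptor, had means of 5.45 and 5.45 in SBN/y and went from 5.71 to 6.53 in SBH/y, an interaction of 0.83 ± 0.16. Timp1, the inhibitor of matrix metalloproteinases, gave 0.86 ± 0.15 and the intermediate filament gene Vim 0.63 ± 0.12. The smallest called members were the epithelial keratin gene Krt8 at 0.39 ± 0.08, S100a11 at 0.47 ± 0.10 and the membrane-binding Anxa2 at 0.50 ± 0.10. The transcription factor gene Sox4, also on the list, passed on a probe set other than the one that stood for it in the list (0.62 ± 0.12), and missed on that one at 0.50 (adjusted p = 0.0530, limma), so that it is not counted among the 10. S100a10, which binds annexin A2 and lies next to S100a11 on chromosome 2 in the GRCr8 annotation, was called too (0.49 ± 0.11), and so was Slpi, the secretory leukocyte peptidase inhibitor (0.87 ± 0.15).

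**Figure D2:**
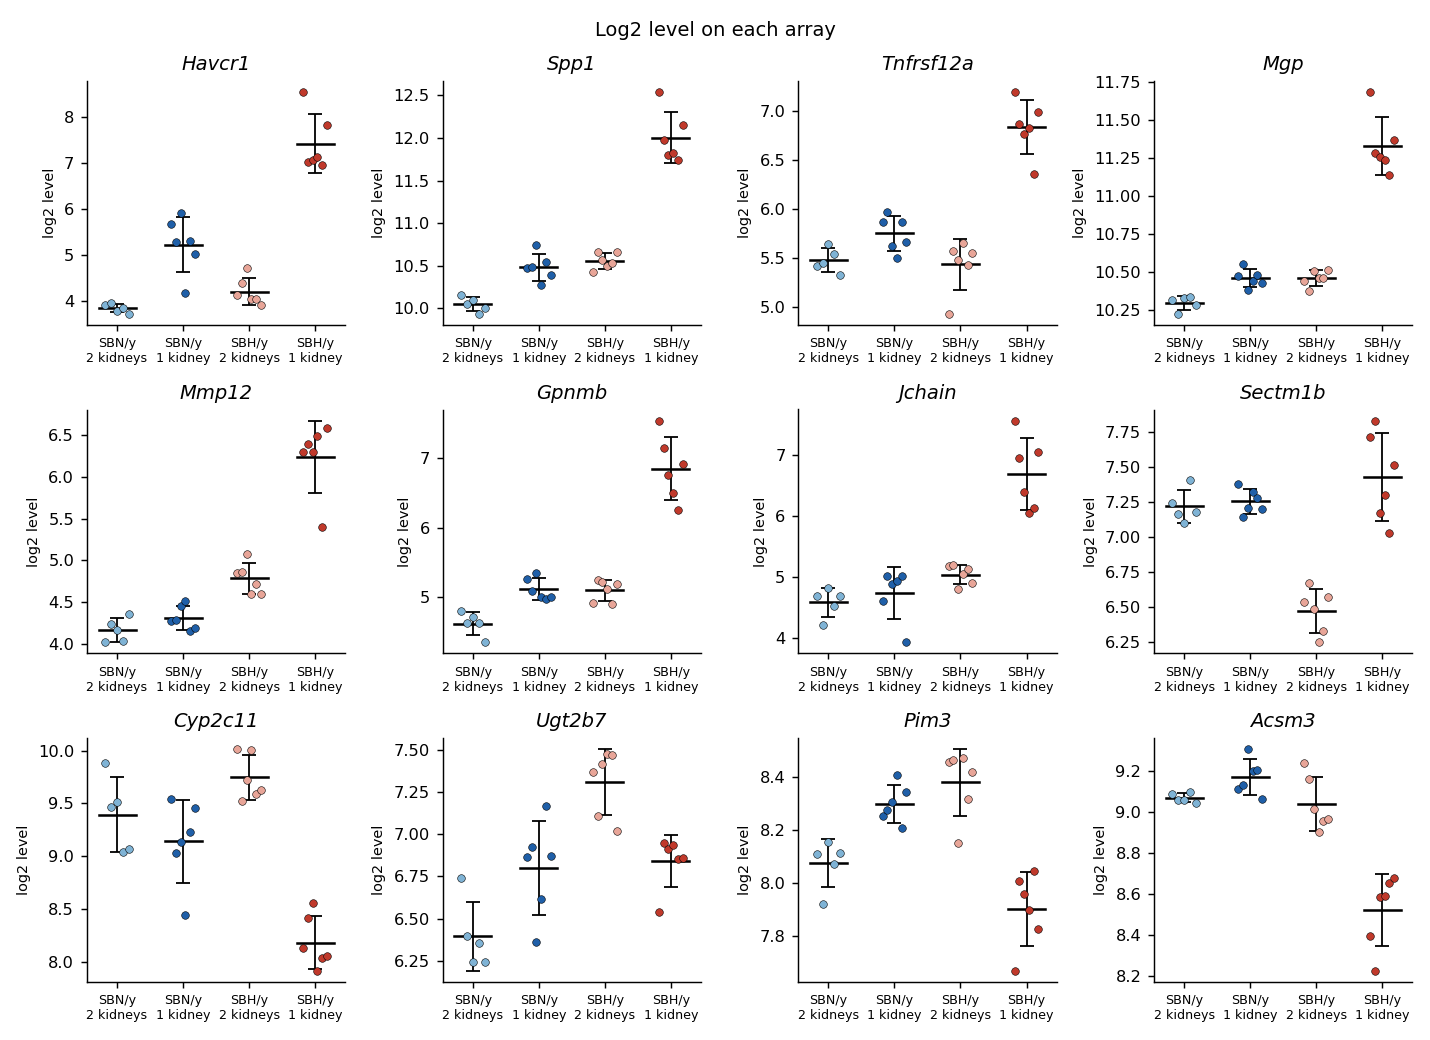
Log2 level of 12 genes on every array (points), with the mean (horizontal bar) and SD (error bar) of each group of 5 or 6 samples. SBH/y samples with 1 kidney lie above all others for Havcr1, Spp1, Tnfrsf12a, Mgp, Mmp12, Gpnmb and Jchain and below all others for Acsm3, while for Sectm1b and Ugt2b7 the strains are apart with 2 kidneys and overlap with 1.

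Macrophage genes formed the next group. Of 22 measured macrophage and myeloid genes, 4 were called and all were positive (Mmp12, Gpnmb, Ctss and Olr1), against 0.331% of all genes. The median over the list was 0.34, and 17 of the 22 had a positive sign, against 51.6% of all genes. In SBH/y 17 rose, against 4.76% of all genes. In SBN/y 0 passed, where only 0.155% of all genes rose. Mmp12, the macrophage elastase, read 4.02, 4.04, 4.17, 4.24 and 4.36 in SBN/y with 2 kidneys and 4.16 to 4.52 (median 4.28) with 1. The SBH/y samples read 4.60 to 5.08 (median 4.79) with 2 kidneys and 5.39 to 6.58 (median 6.34) with 1. Both SBH/y groups lay above both SBN/y groups, and the SBH/y groups did not overlap each other. The strain difference of Mmp12 was 0.62 ± 0.14 with 2 kidneys and 1.93 ± 0.13 with 1, an interaction of 1.31 ± 0.19 (adjusted p = 0.00110, limma).

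Gpnmb, a lysosomal glycoprotein of macrophages, read 4.34, 4.62, 4.62, 4.70 and 4.79 in SBN/y with 2 kidneys, and 4.97 to 5.35 (median 5.04) with 1. The values in SBH/y were 4.89 to 5.24 (median 5.15) with 2 kidneys and 6.26 to 7.55 (median 6.84) with 1. SBN/y with 1 kidney and SBH/y with 2 kidneys overlapped, and SBH/y with 1 kidney stood above both. Its interaction was 1.27 ± 0.20 (adjusted p = 0.00274, limma), on an SBN/y response of 0.49 ± 0.15 that did not pass (adjusted p = 0.239, limma). Ctss, the lysosomal protease cathepsin S, gave 0.51 ± 0.10, with a mean of 8.97 in SBH/y with 1 kidney. The oxidised lipoprotein receptor gene Olr1 passed as well, but 3 of its 4 group means were within the Xist range, and the size was not measured.

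Clec7a, the receptor for fungal beta-glucan and the neighbour of Olr1 on chromosome 4, gave 0.67 ± 0.14, with group means of 6.01 and 5.97 in SBN/y and 5.94 and 6.57 in SBH/y. C5ar1, the receptor for the complement fragment C5a, gave 0.58 ± 0.11 and was the 1 called gene of 9 measured complement genes. Of all genes, 0.331% were called positive. Irak3, a brake on Toll-like receptor signalling, gave 0.57 ± 0.11, and Lbp, the lipopolysaccharide-binding protein, 0.63 ± 0.12. The inhibitory IgG receptor gene Fcgr2b passed from group means of 3.00, 3.04 and 3.00 to 3.99 in SBH/y with 1 kidney. The first 3 of these lie in the Xist range, and the size was not measured.

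Promoters of the called genes were read from the RefSeq table of the GRCr8 assembly, which held a window of 250 bases before to 50 after the start for 43 of the 61 genes (34 positive and 9 negative). The build used for the array is not given in the sources used here, and the windows were matched by symbol. The 250 bases before the start of Mmp12 (chr8:12866402-12866651, plus strand) and of Gpnmb (chr4:79340878-79341127, plus strand), the leading macrophage genes, are shown because each holds a TGANTCA match, the element bound by AP-1 (Fos and Jun proteins), 87 to 81 bases before the start. The capitals mark the match.
Mmp12: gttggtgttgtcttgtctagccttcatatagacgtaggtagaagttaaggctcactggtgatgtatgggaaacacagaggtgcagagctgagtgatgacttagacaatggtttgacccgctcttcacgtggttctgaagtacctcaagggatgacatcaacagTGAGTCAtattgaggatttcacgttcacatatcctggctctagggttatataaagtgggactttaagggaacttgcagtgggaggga
Gpnmb: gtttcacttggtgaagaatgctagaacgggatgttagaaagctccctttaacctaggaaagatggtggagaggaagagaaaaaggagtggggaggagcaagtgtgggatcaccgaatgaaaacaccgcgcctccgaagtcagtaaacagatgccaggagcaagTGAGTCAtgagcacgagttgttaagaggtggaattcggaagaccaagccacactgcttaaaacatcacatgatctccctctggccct
TGANTCA was found, on either strand, in 6 of the 34 windows of positive genes (17.6%; Dclk1, Gpnmb, Olr1, Krt8, Mmp12 and Anxa2), in 0 of the 9 negative ones and in 7.33% of all 27457 windows. In all, 9 motifs were searched in the same way, each on both strands and without regard to overlap. In the positive genes, TATAAA was found in 8 windows (23.5%, against 14.3% of all), GGAATG (TEAD) in 5 (14.7% against 13.9%), CACGTG (E-box) in 3 (8.82% against 6.65%) and TAGGTCA (the core of the ROR and REV-ERB element) in 1 (2.94% against 2.60%). The NF-kB motif (0.372% of all), TTATGTAA (D-box, 0.881% of all), the CArG box (1.64% of all) and the direct repeat bound by HNF4 (0.0583% of all) were found in 0. These are descriptions of the windows, and no share was tested.

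Lymphocyte and plasma cell genes differed in the same direction. Of 16 measured, 3 were called, all positive (Jchain, Ighl2 and Cd3g), against 0.331% of all genes. The list median was 0.23, and all 16 had a positive sign, against 51.6% of all genes. Jchain, which joins the subunits of polymeric IgA and IgM, read 4.21, 4.52, 4.69, 4.70 and 4.82 in SBN/y with 2 kidneys and 3.94 to 5.03 (median 4.92) with 1. In SBH/y it read 4.80 to 5.19 (median 5.09) with 2 kidneys and 6.05 to 7.56 (median 6.67) with 1. SBH/y with 1 kidney was the highest group without overlap, and the other groups overlapped. The interaction was 1.497 ± 0.29 (adjusted p = 0.0141, limma). A dimmer probe set of Jchain gave 0.42 and was not called (adjusted p = 0.297, limma). Ighl2, an immunoglobulin heavy chain-like gene, gave 1.29 ± 0.23. Cd3g, a subunit of the T cell receptor complex, was lower in SBH/y than in SBN/y with 2 kidneys (-0.35 ± 0.08) and higher with 1 (0.31 ± 0.08), an interaction of 0.67 ± 0.11 (adjusted p = 0.00491, limma). Sash3, an adaptor of lymphocyte signalling, gave 0.50 ± 0.11.

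The summed linear signal of the 22 macrophage genes was 2925 to 3071 in SBN/y with 2 kidneys, 3098 to 4365 in SBN/y with 1, 3980 to 4340 in SBH/y with 2 and 5354 to 6906 in SBH/y with 1. That of the 16 lymphocyte and plasma cell genes was 410 to 436, 415 to 521, 413 to 448 and 582 to 942 in the same order. In both lists the samples of SBH/y with 1 kidney lay above all others. Both sums include genes called for the interaction, 4 macrophage genes and 3 lymphocyte and plasma cell genes, among them Jchain and Ighl2. Those genes were chosen by these same values, so that the separation is a description. In 3 other lists the samples of SBH/y with 1 kidney lay below all others, with endothelial genes at 1908 to 2005 (other samples from 2015), thick limb and distal tubule genes at 12054 to 13473 (from 13602) and intercalated cell genes at 3200 to 3636 (from 3690). Those of proximal tubule, podocyte and principal cell genes overlapped between groups. Of the macrophage markers, Cd163 was within the Xist range in all groups. The part of these cell types in the other differences was not tested, and in whole kidney RNA fewer cells of a type and less RNA per cell cannot be told apart.

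Of 21 measured genes of matrix and matrix turnover other than collagens, 4 were called, all positive (Fbn1, Mmp2, Mmp14 and Timp1), against 0.331% of all genes. The list median was 0.28. In SBH/y 12 of the 21 rose, against 4.76% of all genes, and 2 fell (Mmp9 and Tgfbi, named after their values were seen), against 2.40%. The lowest interaction was that of the gelatinase gene Mmp9 at -0.53 (adjusted p = 0.268, limma). An unadjusted p below 0.05 was found for 1357 of all 14217 genes. Of 16 measured collagen genes 0 were called (limma), while 9 had an unadjusted p below 0.05 and the median was 0.29. The nearest were Col5a2 (0.66, adjusted p = 0.0773, limma) and Col3a1 (0.50, adjusted p = 0.0984, limma), and 10 of the 16 rose in SBH/y, against 4.76% of all genes. Of 17 TGF-beta and mesenchymal genes 0 were called and 7 had an unadjusted p below 0.05. Ccn1, a matricellular protein made in response to mechanical load, came nearest at 0.84 ± 0.19 (adjusted p = 0.0530, limma).

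The smallest p among the named genes belonged to Mgp, the matrix Gla protein that inhibits calcification. It read 10.22, 10.28, 10.31, 10.33 and 10.34 in SBN/y with 2 kidneys and 10.38 to 10.55 (median 10.46) with 1. The SBH/y samples read 10.37 to 10.51 (median 10.46) with 2 kidneys and 11.14 to 11.68 (median 11.27) with 1. SBN/y with 1 kidney and SBH/y with 2 kidneys shared their median, and all 6 SBH/y samples with 1 kidney stood above the other 17. The interaction was 0.70 ± 0.09 (adjusted p = 0.000512, limma). The elastic fibre genes Fbn1, which encodes fibrillin and passed on each of its 2 probe sets, and Mfap4 gave 0.65 ± 0.12 and 0.79 ± 0.16.

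In 7 of the 65 positive probe sets, all with a named gene, the strains differed with 2 kidneys and were not called different with 1. Of all probe sets, 9.07% differed between the strains with 2 kidneys and 14.0% with 1, and 1.47% were lower in SBH/y with 2 kidneys and not called with 1. The 7 were Sectm1b, Cpe, Cks2, Crip1, Mmp2, Arhgap8 and Irak3, and each was lower in SBH/y with 2 kidneys. The interaction and the strain difference with 2 kidneys share arrays, so that neither supports the other. Sectm1b, a secreted and transmembrane immune protein, read 7.10, 7.16, 7.18, 7.24 and 7.40 in SBN/y with 2 kidneys and 7.14 to 7.38 (median 7.24) with 1. The values in SBH/y were 6.25 to 6.67 (median 6.51) with 2 kidneys and 7.03 to 7.83 (median 7.40) with 1. SBH/y with 2 kidneys was the group apart, below the other 3, which overlapped. The strain difference went from -0.74 ± 0.11 to 0.17 (95% interval -0.04 to 0.38), an interaction of 0.92 ± 0.15 (adjusted p = 0.00302, limma).

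Of the others, Cpe, Cks2, Crip1, Mmp2 and Arhgap8 also had every SBH/y sample with 2 kidneys below all other samples, while for Irak3 that group (4.44 to 4.82) overlapped SBN/y with 1 kidney (from 4.65) and SBH/y with 1 (from 4.75). These genes were chosen partly by the values of that group, so that the separation is a description. Its share over all probe sets was not determined. Mmp2, the gelatinase that cleaves basement membrane collagen, read 6.13, 6.15, 6.29, 6.32 and 6.50 in SBN/y with 2 kidneys and 6.11 to 6.45 (median 6.13) with 1. In SBH/y it read 5.59 to 5.92 (median 5.77) and 6.06 to 6.40 (median 6.17). The strain difference was -0.53 ± 0.08 with 2 kidneys and 0.02 with 1 (95% interval -0.14 to 0.18). Cpe, a prohormone-processing carboxypeptidase, went from -0.74 ± 0.15 to 0.25 (-0.04 to 0.53), Cks2, a subunit of cyclin-dependent kinases, from -0.72 ± 0.12 to 0.07 (-0.17 to 0.32), and the LIM protein gene Crip1 from -0.60 ± 0.08 to -0.01 (-0.16 to 0.14). For Irak3 it went from -0.42 ± 0.08 to 0.15 (-0.01 to 0.31), and for Arhgap8 from -0.44 ± 0.05 to -0.09 (-0.19 to 0.02). Mmp14, the membrane protease that activates Mmp2, had a strain difference of -0.27 ± 0.08 with 2 kidneys and of 0.27 ± 0.08 with 1, both called.

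Over all 79 probe sets, the strain difference became wider after uninephrectomy in 39 (36 positive and 3 negative), changed sign in 35 (27 and 8) and became narrower in 5 (2 and 3). These are classes of fitted values. The probe sets were chosen by the change in that same strain difference, so that the counts are descriptions. Shares of the classes over all probe sets were not determined. Of the 35 changes of sign, 7 had a called strain difference in both states (Pim3, Cd3g, Pou3f1, Lbp, Fbn1 on 1 of its probe sets, Mmp14 and 1381628_at). The strains were called different with 1 kidney and not with 2 at 49, in both states at 19 and with 2 kidneys only at 11. Of all probe sets, 14.0% were called different with 1 kidney and 9.07% with 2. Gna14, a G protein subunit, was of the kind that was higher in SBH/y in both states, by 0.72 ± 0.10 and 1.38 ± 0.10. Nr1d1 and Mpv17l were lower in SBH/y in both states, by more after uninephrectomy.

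**Figure D3:**
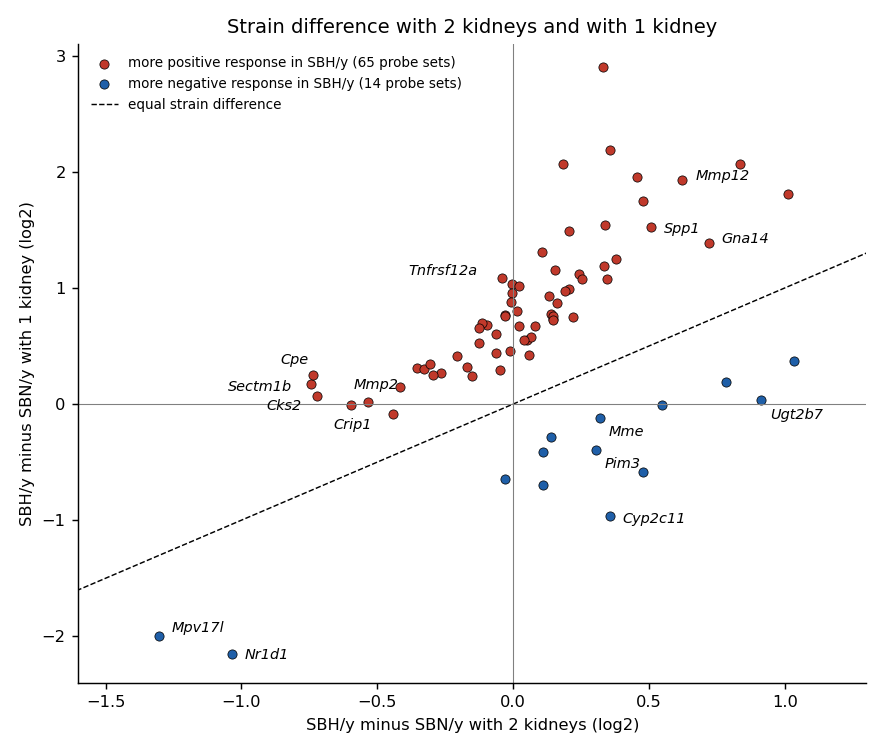
Difference between the strains (SBH/y minus SBN/y, log2) with 2 kidneys (horizontal axis) and with 1 kidney (vertical axis) for the 79 probe sets with a called interaction, red where the response was more positive in SBH/y and blue where it was more negative. Points at the left near a vertical value of 0 (Sectm1b, Cpe, Cks2, Crip1 and Mmp2) were lower in SBH/y with 2 kidneys and not detectably different with 1, and the dashed line marks an equal difference.

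Of the remaining positive genes, Tpbg, a cell-surface glycoprotein, gave 0.88 ± 0.15, with group means of 3.35 and 3.21 in SBN/y and 3.59 and 4.33 in SBH/y. Slc34a2, a sodium-phosphate cotransporter best known from lung and intestine, gave 0.81 ± 0.18, Adra1d, an alpha-adrenergic receptor, 0.79 ± 0.14, and Dclk1, a microtubule-associated kinase, 0.80 ± 0.12 (adjusted p = 0.00110, limma). The protease inhibitor gene A2m gave 0.79 ± 0.14, Rgs10, a regulator of G protein signalling, 0.78 ± 0.12, and Srpx2 0.65 ± 0.13. The lysosomal cholesterol-binding Npc2 and the clathrin adaptor gene Ap1s2 gave 0.37 ± 0.07 and 0.53 ± 0.11, and Lhfpl2 and Jpt1 gave 0.51 ± 0.11 and 0.34 ± 0.07. Serpina3n passed with 3 group means in the Xist range, and its size was not measured.

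Among the 12 named genes with a more negative response in SBH/y were enzymes of drug, steroid and acyl-CoA metabolism. Cyp2c11, a cytochrome P450 that hydroxylates steroids and epoxidises arachidonic acid and is typical of male rats, had the largest size. It read 9.04, 9.06, 9.46, 9.51 and 9.89 in SBN/y with 2 kidneys and 8.44 to 9.54 (median 9.18) with 1. The SBH/y samples read 9.52 to 10.01 (median 9.67) with 2 kidneys and 7.91 to 8.55 (median 8.09) with 1. The SBH/y groups did not overlap, while 1 SBN/y sample with 1 kidney (8.44) came within the range of SBH/y with 1 kidney. Cyp2c11 fell by 1.57 ± 0.16 in SBH/y, the SBN/y response was -0.25 ± 0.16, and the interaction was -1.31 ± 0.23 (adjusted p = 0.00519, limma). Its upstream bases (chr1:246174966-246175215, GRCr8, plus strand) are shown as those of the leading negative gene, with the TATAAA match 31 to 26 bases before the start in capitals, the 1 match of that motif among the 9 negative windows.
Cyp2c11: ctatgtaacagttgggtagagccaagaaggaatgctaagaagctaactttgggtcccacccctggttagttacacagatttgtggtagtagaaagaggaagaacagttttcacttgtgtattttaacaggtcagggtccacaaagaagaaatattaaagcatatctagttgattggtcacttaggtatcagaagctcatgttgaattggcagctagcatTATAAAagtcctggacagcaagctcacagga

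Ugt2b7, a glucuronosyltransferase that conjugates steroids and drugs, read 6.24, 6.25, 6.36, 6.40 and 6.74 in SBN/y with 2 kidneys and 6.36 to 7.17 (median 6.87) with 1. The values in SBH/y were 7.02 to 7.47 (median 7.39) with 2 kidneys and 6.54 to 6.95 (median 6.88) with 1. The strains were apart with 2 kidneys, SBH/y being higher by 0.91 ± 0.12, and overlapped with 1 (difference 0.04, 95% interval -0.19 to 0.27). The interaction was -0.87 ± 0.16 (adjusted p = 0.0105, limma). Cyp2c11 and Ugt2b7 were the 2 called of 21 measured P450, glucuronosyltransferase and sulfotransferase genes, whose median was -0.14. Of all genes, 0.0774% were called negative and 0.331% positive. Cyp1a1, the P450 induced through the aryl hydrocarbon receptor, had an estimate of -1.35 ± 0.31 and did not pass (adjusted p = 0.0546, limma). It read 6.41 to 7.36 in SBH/y with 2 kidneys and 4.32 to 6.06 with 1. Sult1c3, a sulfotransferase, was called with SBN/y with 1 kidney in the Xist range, and so was Serpinb12 with SBN/y with 2 kidneys there. Their sizes were not measured.

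Pim3, a serine/threonine kinase, had the second smallest p among the named genes. It read 7.92, 8.07, 8.11, 8.11 and 8.15 in SBN/y with 2 kidneys and 8.21 to 8.41 (median 8.29) with 1, and 8.15 to 8.47 (median 8.44) and 7.67 to 8.05 (median 7.93) in SBH/y. The SBN/y groups stood apart in one direction and the SBH/y groups in the other, although the SBN/y response of 0.22 ± 0.07 did not pass (adjusted p = 0.280, limma). The interaction was -0.70 ± 0.10 (adjusted p = 0.000612, limma). Acsm3, a medium-chain acyl-CoA synthetase of mitochondria, and Eri2, an exonuclease family gene, are neighbours on chromosome 1 in GRCr8 and gave -0.62 ± 0.10 and -0.80 ± 0.11. Acsm3 read 9.05 to 9.10 in SBN/y with 2 kidneys, 9.06 to 9.31 with 1, 8.90 to 9.24 in SBH/y with 2 and 8.23 to 8.68 with 1, the last group lying below all others. Eri2 showed the same separation, with SBH/y with 1 kidney at 7.32 to 7.68 and all other samples at 7.88 or above. The transcription factor gene Pou3f1 gave -1.06 ± 0.19 at low readings (group means 3.92, 4.11, 4.40 and 3.52), and Mpv17l -0.69 ± 0.15.

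Nr1d1 (Rev-erb alpha) is the nuclear receptor that represses transcription in the circadian clock. It was the 1 called gene of 17 measured clock genes, against 0.0774% of all genes called negative. Its group means were 6.29 and 6.50 in SBN/y and 5.26 and 4.35 in SBH/y, an interaction of -1.12 ± 0.24 (adjusted p = 0.0389, limma). It lost its call in 17 of 23 fits that each left out 1 array, with values of -1.26 to -0.98. Cry1, a repressor of the same clock, gave 0.76 ± 0.21 without passing (adjusted p = 0.158, limma). The hour at which the kidneys were taken is not given in the labels, and its part was not tested. Ppargc1a, the coactivator that drives mitochondrial biogenesis, gave -0.42 ± 0.09 (adjusted p = 0.0259, limma). Ppargc1a and Acsm3 were called among 21 measured genes of acyl-CoA metabolism and fatty acid oxidation, against 0.0774% of all genes called negative. Mme, the brush border and podocyte peptidase neprilysin, which cleaves natriuretic peptides and angiotensins, gave -0.44 ± 0.10. It was the 1 called of 14 measured genes of the renin-angiotensin list, against the same 0.0774% of all genes. The strains differed in Mme by 0.32 ± 0.07 with 2 kidneys, SBH/y being higher, and by -0.12 (95% interval -0.26 to 0.01) with 1.

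Markers of the nephron segments and of endothelium gave 0 called interactions by limma in any of 6 lists. They were 21 proximal tubule genes (3 with an unadjusted p below 0.05) and 13 podocyte genes (3). There were also 11 thick limb and distal tubule genes (1) and 10 principal cell genes (0). The last were 8 intercalated cell genes (3) and 11 endothelial genes (3). Among all genes, 1357 of 14217 had an unadjusted p below 0.05. The medians ran from -0.04 for proximal tubule, principal and endothelial cells to -0.18 for intercalated cells, and all 8 intercalated and all 11 thick limb and distal genes had a negative sign, against 51.6% positive over all genes. In SBH/y 5 of the intercalated cell genes fell (Slc4a1, Foxi1, Rhcg, Atp6v1g3 and Atp6v1b1), as did 4 podocyte genes (Vegfa, Wt1, Ptpro and Nphs1), 2 proximal tubule genes (Slc9a3 and Slc6a18), 2 endothelial genes (Kdr and Emcn), 2 principal cell genes (Aqp4 and Fxyd4) and 1 thick limb and distal tubule gene (Egf), against 2.40% of all genes, and 0 fell in SBN/y. They are named after their values were seen, and Slc4a1 is also on the red blood cell list. The nearest to the interaction threshold were the growth factor gene Vegfa of podocytes (-0.31 ± 0.07, adjusted p = 0.0530, limma), the sodium-proton exchanger gene Slc9a3 of the proximal tubule (-0.51 ± 0.12, adjusted p = 0.0636, limma) and the anion exchanger gene Slc4a1 of intercalated cells (-0.38 ± 0.09, adjusted p = 0.0861, limma).

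Other lists without a call by limma were 28 genes of chemokines, adhesion and NF-kB (median 0.12, 8 with an unadjusted p below 0.05), 17 of antigen presentation (0.27, 11), 15 of the interferon response (0.16, 4), 19 immediate early genes (0.07, 7) and 23 of the cell cycle (0.19, 7). Among all genes, 1357 of 14217 had an unadjusted p below 0.05. All 17 antigen presentation genes had a positive sign, against 51.6% of all genes. In SBH/y 10 of them rose (4.76% of all genes did), and in SBN/y 0 (0.155%). Among the immediate early genes, Klf6 came nearest, at 0.61 ± 0.14 (adjusted p = 0.0530, limma). The apoptosis inhibitor gene Birc3, a target of NF-kB, gave 0.70 ± 0.16 (adjusted p = 0.0566, limma). The lists of endoplasmic reticulum stress (15 genes, median -0.05, 0 with an unadjusted p below 0.05), Nrf2 and heme (14, -0.12, 2), and organic ion and drug transporters (17, -0.08, 3) had 0 calls too. So did the tissue lists of red blood cells (4 genes, 1), fat (10, 0), adrenal cortex (6, 0) and skeletal muscle (8, 1). The 1 red blood cell gene was Slc4a1, which is also counted in the intercalated cell list.

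**Figure D4:**
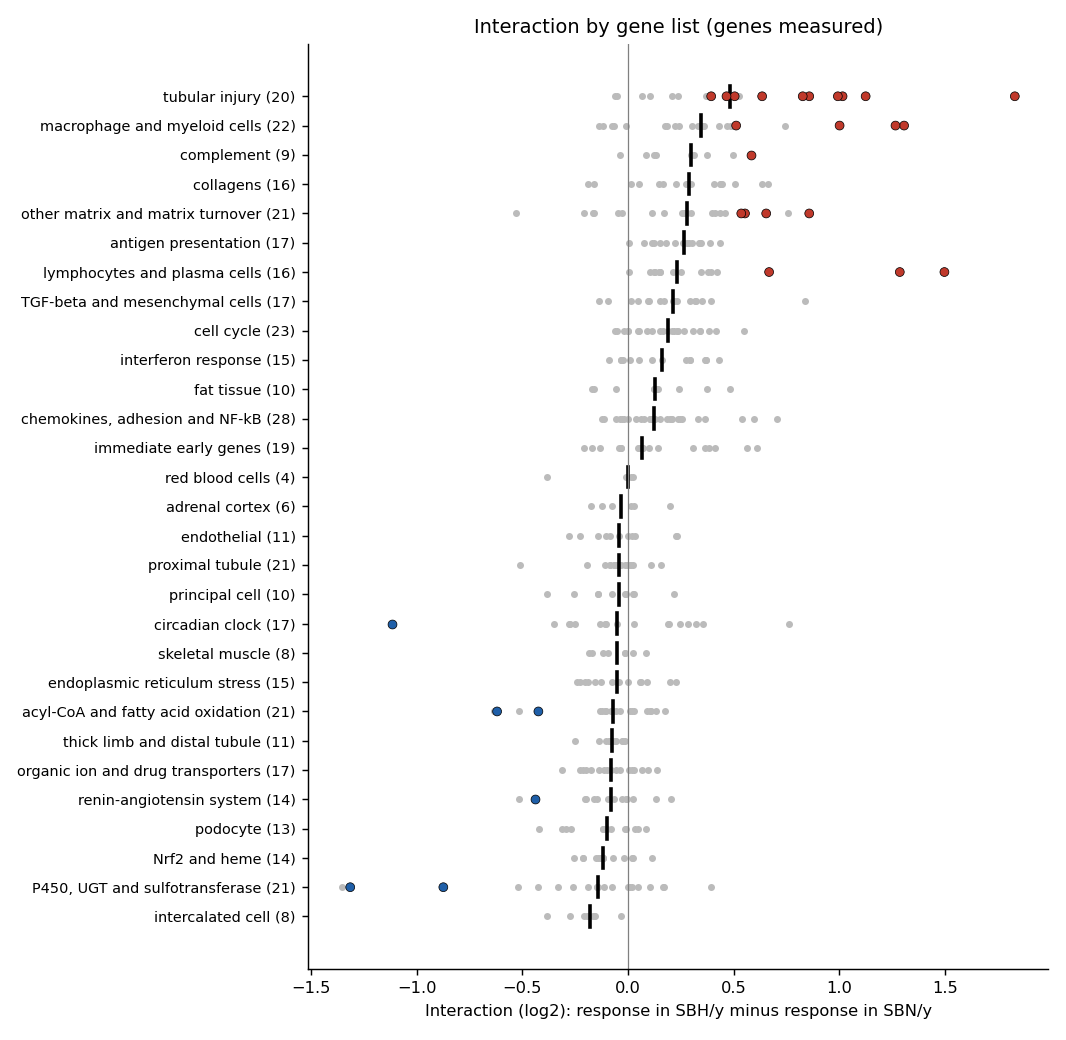
Interaction (log2) of each measured gene in 29 gene lists, 1 row per list with the number of genes measured, ordered by the list median (black bar). Coloured points passed an adjusted p below 0.05, red for positive and blue for negative. The red points lie in the tubular injury, macrophage, matrix and lymphocyte lists, with 1 in the complement list. The blue ones lie in the P450, acyl-CoA, renin-angiotensin and clock lists.

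The samples of SBH/y with 1 kidney were not alike in how far they moved. Averaged over the 65 positive probe sets, their deviation from the mean of SBN/y with 2 kidneys ran from 0.69 (replicate 5) to 1.31 (replicate 1), while every sample of the other groups lay between -0.02 and 0.15. Replicate 1 was the highest of the 6 at 48 of the 65 probe sets, replicate 2 at 12 and replicate 6 at 5. Over the 14 negative probe sets the same 6 samples lay between -0.55 (replicate 1) and -0.34, and the other groups between -0.05 and 0.25. The median SD of the 65 within SBH/y with 1 kidney was 0.239, against 0.117 to 0.134 in the other groups. All 6 samples lay above the other 17 at 45 of the 65 probe sets, against 0.915% of all probe sets, and below them at 4 of the 14, against 0.387%. The probe sets were chosen by these values, so that this is a description.

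**Figure D5:**
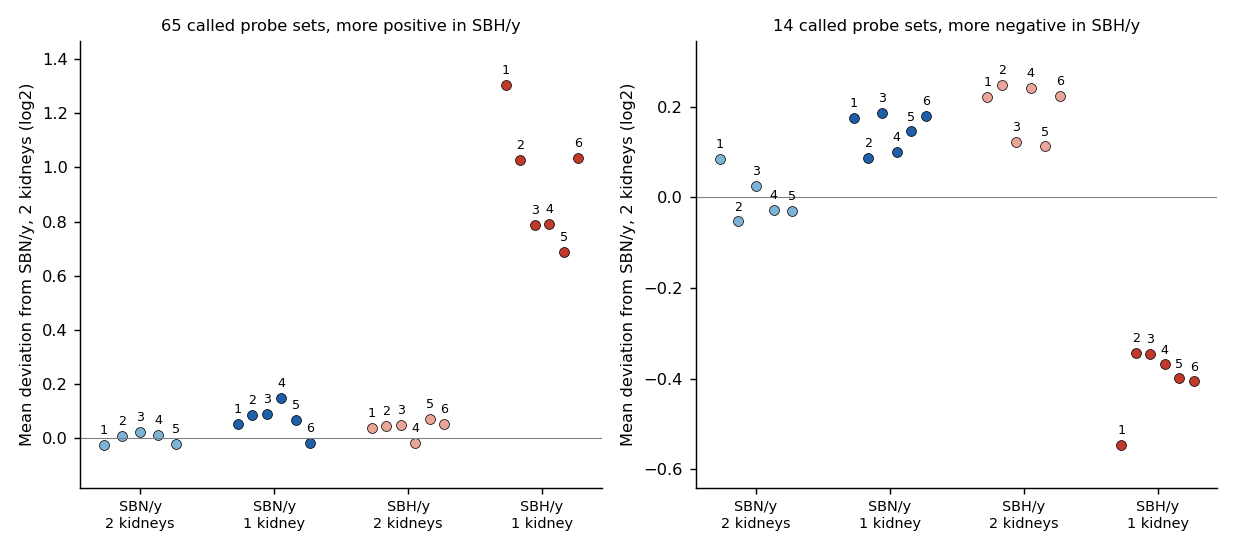
Mean deviation of each array from the mean of SBN/y with 2 kidneys (log2), averaged over the 65 probe sets more positive in SBH/y (left) and the 14 more negative (right), with the replicate number above each point. The 6 samples of SBH/y with 1 kidney stand apart from the other 3 groups in both panels, and replicate 1 lies farthest out.

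Without replicate 1 of SBH/y with 1 kidney, 59 probe sets were called, all of them among the 79. Without replicate 6 of SBN/y with 1 kidney 52 were called, all among the 79, and without its replicate 4 the number was 131. Without replicates 3 or 5 of SBH/y with 1 kidney the numbers were 157 and 133, and all 79 were among them. Of the 61 named genes, 38 kept their call whichever of the 23 arrays was left out. Those that lost it most often were Slc34a2 (19 of 23 fits), Lhfpl2 (18), Nr1d1 (17), Cks2 (16), Jpt1 (15), Clec7a and S100a10 (14 each), Ap1s2 and Mme (13 each). The value of Slc34a2, for example, ran from 0.69 to 0.93 over these fits, against 0.81 with all arrays. The sign was kept in all 1403 values, those of the 61 named genes in each of the 23 fits. On values turned back to the linear scale, with the variance allowed to follow the level, 18 of the 61 lost their call. Among them were Havcr1 (adjusted p = 0.121, limma), Clu (0.103), Jchain (0.0873), Cd44 (0.0765) and Ighl2 (0.0618). That fit compares differences of signal and not fold changes. Scale and variance model changed together, and their separate parts in these losses were not tested.

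The largest interaction of all belonged to a probe set without a gene symbol in the annotation used, 1370394_at. Its group means were 4.93 and 5.38 in SBN/y and 5.26 and 8.28 in SBH/y, an interaction of 2.57 (adjusted p = 0.000413, limma). Other probe sets with no symbol or several were 1370967_at (1.88), 1387902_a_at (1.23), 1370892_at (1.20) and 1373908_at (1.20) among the positive, and 1375823_at (-0.56) and 1369682_at (-0.52) among the negative. For the named genes, 17 were measured by 28 other probe sets. Of these, 26 had the sign of the one called and 1 was called (the second of Fbn1). Of the 28, 24 were dimmer than the one called, and the brighter ones were not called. They belonged to Lhfpl2 (0.46, adjusted p = 0.123, and 0.24, adjusted p = 0.484, limma), Mpv17l (-0.41, adjusted p = 0.515, limma) and Sox4 (0.50, adjusted p = 0.0530, limma). The highest adjusted p among the called was 0.0450 (limma), and a further 62 probe sets, 48 positive and 14 negative, had one between 0.05 and 0.10.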

How the data were processed

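Total RNA of whole male rat kidney was hybridised to 1 Affymetrix array per sample. The submitters' processing notes name GCOS and RMA, without versions, for the log2 values the authors deposited. Array probe build and scan batches are not given in the sources used here. Groups came from the sample titles. One linear model over all 23 arrays, with a mean per group, was fitted with limma 3.58.1 in R 4.3.3, and p-values were adjusted by Benjamini-Hochberg over 31042 probe sets at a threshold of 0.05. The fit was tested on simulated data. Gene lists used the probe set with the highest mean of each of 14217 genes. Genes named were all called ones with 1 symbol, each by its smallest p, and up to 3 per list by p. The members, lists and tests were chosen with earlier results of these data known. No label says that samples were separate animals, so p-values then measure only sample-to-sample spread, which may be technical, and the number of arrays limits the precision. Alternatives covered scaling, filters, variance model, array weights, replicate block, RNA integrity, linear values and left-out arrays.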

Additional observations from a re-analysis of the deposited data

Results flagged for a closer look

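The response to uninephrectomy differed between the strains, by the test of the interaction itself (limma, Benjamini-Hochberg adjusted p below 0.05), in all 61 named genes. On the log2 scale the more positive responses of SBH/y were Havcr1 (1.83), Jchain (1.497), Mmp12 (1.31), Ighl2 (1.29), Gpnmb (1.27), Tnfrsf12a (1.12), Spp1 (1.01), Olr1 (1.001), Clu (0.99), Cpe (0.99), Fcgr2b (0.96), Sectm1b (0.92) and Tpbg (0.88). Next came Slpi (0.87), Timp1 (0.86), Cd44 (0.83), Slc34a2 (0.81), Dclk1 (0.80), Cks2 (0.79), Adra1d (0.79), Mfap4 (0.79), A2m (0.79), Serpina3n (0.79), Rgs10 (0.78), Mgp (0.70) and Cd3g (0.67). Then came Clec7a (0.67), Gna14 (0.66), Srpx2 (0.65), Fbn1 (0.65), Vim (0.63), Lbp (0.63), Sox4 (0.62), Crip1 (0.59), C5ar1 (0.58), Irak3 (0.57), Mmp2 (0.55), Mmp14 (0.54) and Ap1s2 (0.53). Last came Lhfpl2 (0.51), Ctss (0.51), Anxa2 (0.50), Sash3 (0.50), S100a10 (0.49), S100a11 (0.47), Krt8 (0.39), Npc2 (0.37), Arhgap8 (0.36) and Jpt1 (0.34). The more negative responses were Ppargc1a (-0.42), Mme (-0.44), Sult1c3 (-0.59), Acsm3 (-0.62), Serpinb12 (-0.66), Mpv17l (-0.69), Pim3 (-0.70), Eri2 (-0.80), Ugt2b7 (-0.87), Pou3f1 (-1.06), Nr1d1 (-1.12) and Cyp2c11 (-1.31). Of the probe sets with no symbol or several, those with the smallest p in each direction were 1370394_at (2.57) and 1369682_at (-0.52). Olr1, Fcgr2b, Serpina3n, Serpinb12 and Sult1c3 had a group mean in the Xist range, and their values are fitted differences, not measured sizes.

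Single samples stood apart from the rest of their group (Dixon's criterion) in 10 of 116 groups examined, where chance gives about 1 in 20. Among the SBH/y samples with 1 kidney, replicate 1 was high for Clu (10.54), Fcgr2b (4.60) and Timp1 (7.53) and low for Ugt2b7 (6.54). The same sample was low for the mean deviation over the 14 negative probe sets (-0.55). Replicate 5 of that group was low for Mmp12 (5.39). In SBH/y with 2 kidneys, replicate 1 was low for Tnfrsf12a (4.93) and replicate 4 for the mean deviation over the 65 positive probe sets (-0.016). In SBN/y with 1 kidney, replicate 6 was low for Cd44 (5.18) and replicate 4 high for Nr1d1 (6.94).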

How the results depend on the processing

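The count of 79 probe sets with a called interaction became 124 with a trended and robust variance, 137 with array weights and 124 with the GAPDH signal as a covariate, and it ran from 52 to 157 when 1 array was left out. It was between 67 and 94 with quantile normalization repeated, arrays centred, dim probe sets removed, 1 probe set per gene or a replicate block. The same range held for linear values with a trended variance, and without 2 arrays at the ends of the second principal component. The count of 27 list members called ran from 21 to 42 when 1 array was left out. The count of 52 probe sets for the SBN/y response became 137 with array weights and ran from 24 to 78 when 1 array was left out, with the low values of 24 to 34 without replicates 1, 2, 3 or 4 of SBN/y with 2 kidneys or 1 or 3 of SBN/y with 1. With 1 probe set per gene, and so fewer features tested, the strain difference was called at 1748 with 2 kidneys and 2810 with 1. When 1 array was left out, the SBH/y response had 1057 to 1765 calls and the strain differences 2412 to 3002 (2 kidneys) and 3713 to 4516 (1 kidney). On their next probe set, the interactions of Cry2 (-0.0282) and Pdgfrb (-0.0663), neither called, had the opposite sign, and the cause was not tested. Of the named genes, 32 of 61 kept their call in every fit made of them apart from the next probe set, where 1 of 17 was called. Across same-numbered samples the deviations from the group means correlated between -0.27 and 0.26 over 33 pairs, so the numbers were not taken to pair samples. With the replicate block 67 probe sets were called, 58 of them among the 79, and 15 named genes lost their call. The number of arrays limits the precision, and probe sets near background give a call but no size.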
